A study of Drosophila melanogaster with 12 samples.

Results

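The nuclear-encoded respiratory chain genes described here are 65 genes of the ovary count table whose symbols begin with ND-, COX, UQCR-, ATPsyn or Sdh, which lie outside the mitochondrial genome and which averaged at least 10 raw fragments over the 6 RNA libraries. They are 65 of 88 genes with such a symbol and of 17768 genes in the table. By their symbols, 32 belong to complex I, 5 to complex II, 6 to complex III, 10 to complex IV and 12 to complex V. The symbols set membership, so the assembly factor Sdhaf3 is included and subunits with other names, such as blw and sun, are not.

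RNA-seq was made from polyA RNA of whole ovaries of 2-day-old Drosophila melanogaster females in 2 groups of 3 biological replicates. In the Sfmbt RNAi group the nanos-Gal4 driver expressed a UAS hairpin against Sfmbt (Sfmbt RNAi-1, TRiP.HMS00473), and in the mCherry RNAi group the same driver expressed a UAS hairpin against mCherry, a red fluorescent protein that flies lack. Both groups therefore carry the driver and a hairpin, and the comparison rests on 1 Sfmbt hairpin. The driver acts in germ cells, while the ovary also holds follicle cells and sheath muscle that do not express the hairpin. ChIP-seq had 2 replicates a group: GFP-Sfmbt knock-in ovaries precipitated with anti-GFP, yw ovaries precipitated with anti-Pho, and untagged Oregon-R ovaries precipitated with anti-GFP as the control. Whether animals were pooled, and how many, is not given in the sources used here. The count columns carry letters: the letter C was read as the control, mCherry RNAi, and the letter A as Sfmbt RNAi by elimination. The direction of every change rests on this reading.

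The respiratory chain passes electrons from NADH (complex I) or succinate (complex II) through complexes III and IV to oxygen, and the proton gradient formed on the way drives ATP synthase, complex V. Complexes I, III, IV and V join subunits encoded in the nucleus with subunits encoded in mitochondrial DNA, whereas complex II is entirely nuclear. In the fly ovary, germ cells copy mitochondrial DNA early in oogenesis, and mitochondria of late oocytes enter a quiet state.

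Libraries held from 34057506 to 47315104 counted fragments in Sfmbt RNAi and from 36660629 to 51297961 in mCherry RNAi. Sfmbt itself (2L:13169649-13176785) had 43.8, 43.8 and 36.7 CPM in Sfmbt RNAi ovaries, against 146.1, 122.4 and 123.2 CPM in mCherry RNAi ovaries. CPM is the share of a library's fragments, scaled by TMM, a normalisation that takes most genes as unchanged. All 9 chorion genes, which late follicle cells express for the eggshell, were called lower with all libraries (2 without Sfmbt RNAi replicate 3, 4 without mCherry RNAi replicate 2 and 5 without mCherry RNAi replicate 3), and their summed level was 7547 to 20193 CPM in Sfmbt RNAi and 35271 to 50570 CPM in mCherry RNAi. The germline list had 4 of 7 genes called higher (2 without mCherry RNAi replicate 2 or 3) and 1 lower, with sums of 2073 to 2527 CPM in Sfmbt RNAi and 1503 to 1947 CPM in mCherry RNAi. In edgeR 0 of 7 vitelline membrane genes (8122 to 12204 CPM in Sfmbt RNAi, 9475 to 12303 CPM in mCherry RNAi) and 0 of 12 muscle genes (634.5 to 1923 CPM in Sfmbt RNAi, 1212 to 1630 CPM in mCherry RNAi) were called, with 0 at an unadjusted p under 0.05 and 0 in DESeq2 for either list. The third Sfmbt RNAi library was the lowest for muscle, and 2 muscle genes were called higher without it. Of 17 gut genes (9.004 to 308.7 CPM in Sfmbt RNAi, 334.3 to 3437 CPM in mCherry RNAi) 0 were called in edgeR, 5 were lower at an unadjusted p under 0.05 and 8 were lower in DESeq2. No marker was at 0 in any library. The part of these differences in the results that follow was not tested. The chorion level entered 1 fit as a covariate, but its sums do not overlap between the groups, so that fit cannot separate it from Sfmbt RNAi.

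The nuclear genes of the respiratory chain had the median change of all genes in the fit on group alone, but not once the summed chorion level was a covariate, and a minority of single genes passed the test. In edgeR's quasi-likelihood test 11 of the 65 genes (16.9%) were lower in Sfmbt RNAi, where 19.4% of the 9667 genes tested were lower. Only 4 (6.15%) were higher, where 15.2% of all tested genes were higher, and 50 did not pass. A gene counts as called at a Benjamini-Hochberg adjusted p under 0.05 over all genes tested. All 65 genes passed the filter on low counts, though ATPsynepsilonL, 1 of the 4 higher, and COX4L did so only through their Sfmbt RNAi libraries. The counts rest on single libraries: leaving out mCherry RNAi replicate 2 left 5 genes lower and 1 higher, leaving out its replicate 3 left 5 lower and 2 higher, and leaving out Sfmbt RNAi replicate 2 left 6 lower and 3 higher. The median log2 fold change, Sfmbt RNAi over mCherry RNAi, was −0.04, and over all tested genes it was also −0.04. The change lay within 0.25 on the log2 scale in 48 of the 65. The libraries of the 2 groups did not overlap, with Sfmbt RNAi lower, in 19 genes, a pattern that 27.6% of all tested genes showed. They did not overlap with Sfmbt RNAi higher in 6, where 22.6% of all tested genes did so. In whole-ovary RNA, fewer cells of a type and less RNA per cell cannot be told apart. When the summed chorion level entered the fit as a covariate, the 65 genes had a median of −0.246 on the log2 scale, against −0.048 over all tested genes. None of the 65 then passed in edgeR, 10 had an unadjusted p under 0.05, and 118 of all genes passed. That covariate does not overlap between the groups, so the fit cannot tell it apart from Sfmbt RNAi. It made standard errors 2.2 times as large at the median. The log2 fold changes of the 4 higher genes became smaller with it, to 0.00 for ND-75, 0.07 for COX7A, 0.11 for SdhB and 5.89 for ATPsynepsilonL. Among the lower genes, ND-B14.5B (−0.67), ND-B14.5A (−0.62), ND-MLRQ (−0.42) and Sdhaf3 (−0.52) also came closer to no change. The changes of UQCR-11 (−0.77), ND-PDSW (−0.59), ND-19 (−0.25), UQCR-C1 (−0.54), COX7B (−0.54), COX5B (−0.43) and ATPsynCF6 (−0.47) became larger. Among these called genes the SE with the covariate ran from 0.135 for ND-75 to 1.48 for ATPsynepsilonL, and the shift of a single gene was not tested. DESeq2, which gave 14 lower and 5 higher without the covariate, was not run with it.

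**Figure D1:**
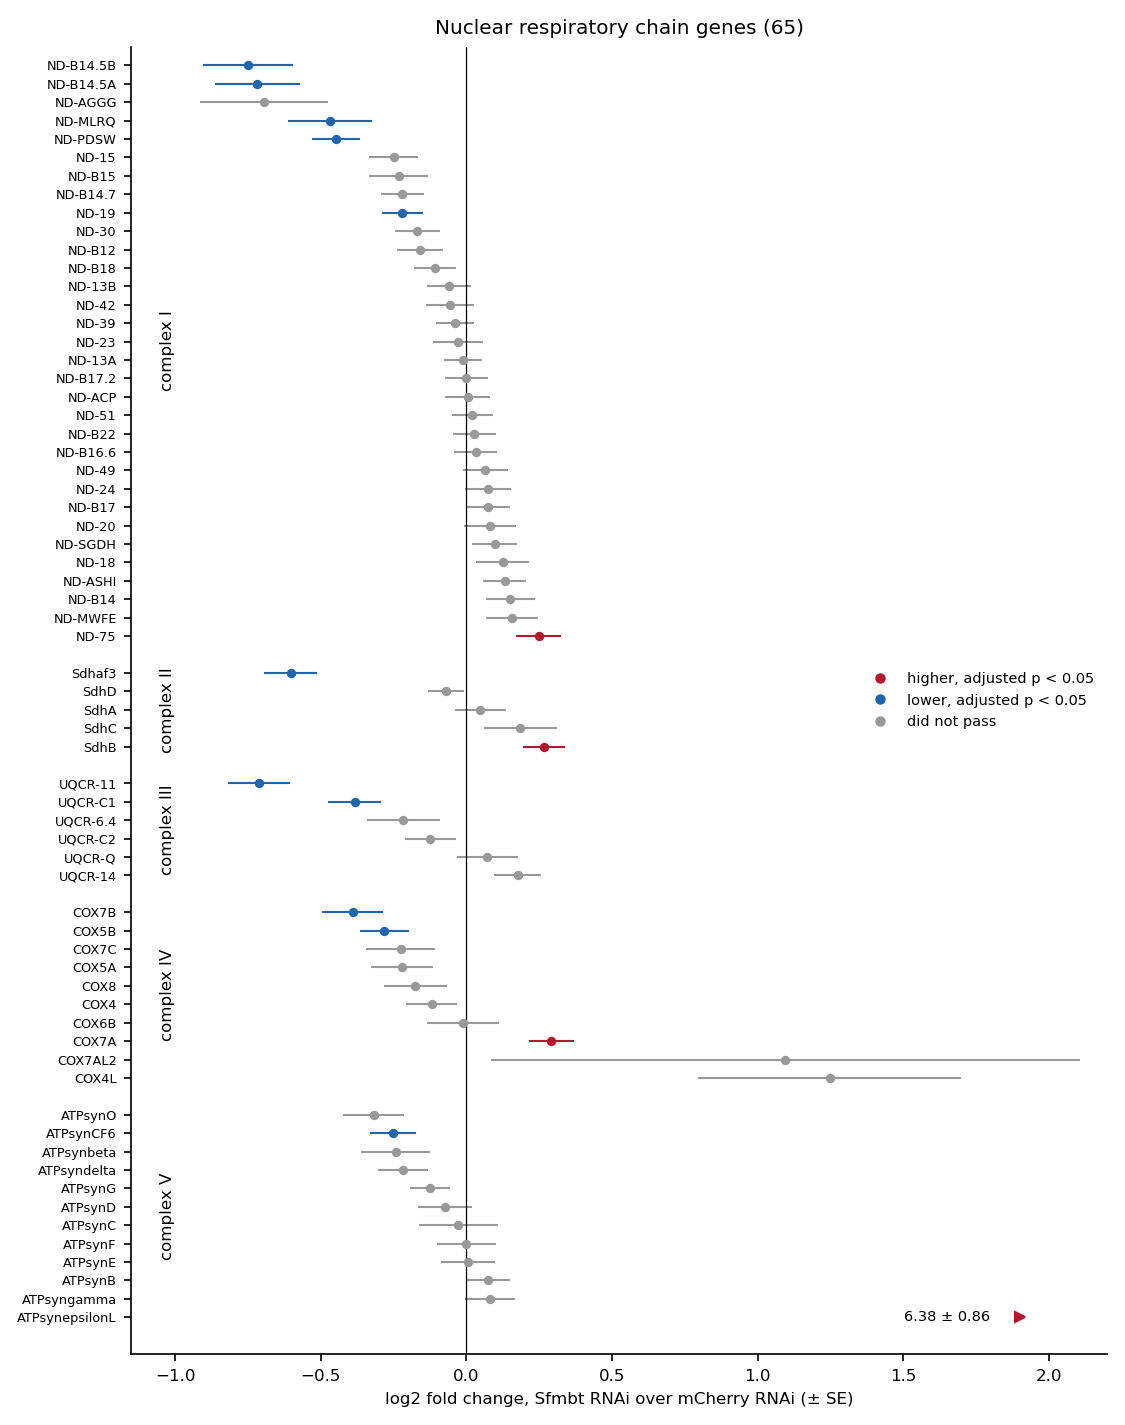
Log2 fold change with its standard error, Sfmbt RNAi over mCherry RNAi, for the 65 genes in blocks by complex, from the lowest to the highest within a block (blue, lower at adjusted p under 0.05; red, higher; grey, did not pass; n = 3 libraries a group). Most points lie within 0.25 of 0, 8 genes lie between −0.75 and −0.39, and ATPsynepsilonL, at 6.38, is drawn as an arrow at the right edge.

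Complex I, which oxidises NADH, had 5 genes lower, 1 higher and 26 not called, with a median log2 fold change of −0.02. These are 15.6% lower and 3.1% higher, against 19.4% and 15.2% of all tested genes. ND-B14.5B (2L:3144953-3145848), a small accessory subunit, had 79.1, 77.4 and 56.4 CPM in Sfmbt RNAi, against 104.6, 136.4 and 116.8 CPM in mCherry RNAi. The log2 fold change was −0.75 with SE 0.15 (adjusted p = 0.0108 in edgeR). Every Sfmbt RNAi library lay under every mCherry RNAi library. ND-B14.5A (X:2172526-2173432), another accessory subunit, had 46.1, 46.0 and 33.6 CPM in Sfmbt RNAi, against 61.0, 77.2 and 68.4 CPM in mCherry RNAi (log2 fold change −0.72 with SE 0.14, adjusted p = 0.00982 in edgeR). Again the groups did not overlap, and in both genes the third Sfmbt RNAi library was the lowest of the 6. ND-PDSW (2L:3466157-3467334), also an accessory subunit, had 57.7, 51.3 and 49.2 CPM in Sfmbt RNAi, against 67.7, 75.1 and 72.6 CPM in mCherry RNAi (log2 fold change −0.45 with SE 0.08, adjusted p = 0.00687 in edgeR). These 3 genes kept their calls in every leave-one-out fit.

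Other complex I calls were close to the threshold. ND-MLRQ (3L:23339326-23345936), whose mammalian counterpart was first assigned to complex I and later to complex IV, had 87.5, 86.4 and 63.1 CPM in Sfmbt RNAi, against 96.8, 111.3 and 119.8 CPM in mCherry RNAi. Its log2 fold change was −0.47 with SE 0.14 (adjusted p = 0.0413 in edgeR), and the groups did not overlap. Its call was lost without Sfmbt RNAi replicate 2 or 3 (adjusted p = 0.0550 and 0.0612 in edgeR) and without mCherry RNAi replicate 2 or 3 (adjusted p = 0.115 and 0.124 in edgeR). ND-19 had a log2 fold change of −0.22 with SE 0.07 (adjusted p = 0.0463 in edgeR), and each of the 6 leave-one-out fits lost the call (adjusted p from 0.0569 to 0.127 in edgeR). ND-AGGG (3L:24976254-24977118), an accessory subunit of the membrane arm, had 98.1, 106.7 and 61.8 CPM in Sfmbt RNAi, against 120.6, 159.0 and 151.9 CPM in mCherry RNAi. Its log2 fold change was −0.70 with SE 0.22 and it just missed the threshold (adjusted p = 0.0516 in edgeR). It passed without Sfmbt RNAi replicate 2 or 3 (adjusted p = 0.0449 and 0.0387 in edgeR) and in no other leave-one-out fit. It also passed with TMM without mitochondrial and chorion genes (adjusted p = 0.0437 in edgeR) and in DESeq2 (adjusted p = 0.00387). ND-15, another accessory subunit, had 86.7, 76.3 and 77.5 CPM in Sfmbt RNAi, against 89.0, 95.4 and 101.7 CPM in mCherry RNAi, and its log2 fold change of −0.25 with SE 0.08 did not pass (adjusted p = 0.0524 in edgeR). It passed without mCherry RNAi replicate 1 (adjusted p = 0.0397 in edgeR), in no other leave-one-out fit, and in DESeq2 (adjusted p = 0.0433).

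ND-75 (X:8248651-8251687), the largest iron-sulphur subunit of the electron input arm, was the only complex I gene called higher. It had 245.4, 218.8 and 230.7 CPM in Sfmbt RNAi, against 207.5, 189.7 and 187.9 CPM in mCherry RNAi (log2 fold change 0.25 with SE 0.08, adjusted p = 0.0436 in edgeR). The groups did not overlap. The call was lost in each of the 5 fits that left out an Sfmbt RNAi library or mCherry RNAi replicate 2 or 3 (adjusted p from 0.0626 to 0.167 in edgeR). The 7 core subunits, those with counterparts in bacterial complex I (ND-75, ND-51, ND-49, ND-30, ND-24, ND-23 and ND-20) had 0 lower (also 0 at an unadjusted p under 0.05 and 0 in DESeq2) and 1 higher, with a median log2 fold change of 0.07. The 25 others had 5 lower (20%, against 19.4% of all tested genes) and 0 higher (against 15.2% of all tested genes). Again 0 were higher at an unadjusted p under 0.05 and 0 in DESeq2. Their median was −0.06, and in 10 of them (40%, against 27.6% of all tested genes) the groups did not overlap, with Sfmbt RNAi lower. This split into core and accessory was chosen after the values were seen and was given no test. The summed level of the 25 accessory genes was 1814, 1696 and 1565 CPM in Sfmbt RNAi, against 1846, 1951 and 1926 CPM in mCherry RNAi, while that of the core genes was 953.5, 862.2 and 865.4 CPM in Sfmbt RNAi and 882.0, 830.1 and 842.5 CPM in mCherry RNAi. The accessory sums did not overlap between groups, and the core sums did. The mean accessory sum in Sfmbt RNAi was 0.887 times that in mCherry RNAi, and the mean core sum 1.05 times. For all tested genes the sums did not overlap either, and the mean was 0.852 times that in mCherry RNAi. That sum includes the mitochondrial and chorion genes, whose sums were lower, while the median log2 fold change of all tested genes was −0.04.

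Complex II, succinate dehydrogenase, also serves the citric acid cycle. Sdhaf3 (3R:16481861-16482452), an assembly factor that helps mature the iron-sulphur subunit, was lower: 15.8, 15.9 and 15.1 CPM in Sfmbt RNAi, against 22.3, 25.7 and 23.0 CPM in mCherry RNAi. Sdhaf3 thus had a log2 fold change of −0.60 with SE 0.09 (adjusted p = 0.00316 in edgeR), with each Sfmbt RNAi library under each mCherry RNAi library, and the call held in every leave-one-out fit. SdhB (2R:6807626-6809172), the iron-sulphur subunit itself, was higher, with 90.1, 84.3 and 90.8 CPM in Sfmbt RNAi, against 78.3, 72.8 and 69.1 CPM in mCherry RNAi. Its log2 fold change was 0.27 with SE 0.07 (adjusted p = 0.0280 in edgeR) and the groups did not overlap. That call was lost without Sfmbt RNAi replicate 3 and without mCherry RNAi replicate 2 or 3 (adjusted p = 0.0574, 0.110 and 0.114 in edgeR). SdhA, the flavoprotein, averaged 194.4 ± 15.1 CPM in Sfmbt RNAi and 188.0 ± 13.5 CPM in mCherry RNAi (SD, n = 3 each), a difference within the spread. SdhC, a membrane anchor, had 97.2, 87.9 and 68.9 CPM in Sfmbt RNAi, against 75.8, 76.4 and 71.1 CPM in mCherry RNAi (log2 fold change 0.19 with SE 0.12, adjusted p = 0.289 in edgeR). The third Sfmbt RNAi library lay under all others for SdhC, and without it the gene passed (log2 fold change 0.32, adjusted p = 0.0253 in edgeR). SdhD, the other anchor, had a log2 fold change of −0.07.

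Complex III, the cytochrome bc1 complex, had 2 genes lower (33.3%), 0 higher and 4 not called in edgeR, against 19.4% lower and 15.2% higher of all tested genes. At an unadjusted p under 0.05 0 were higher, and in DESeq2 1 was. UQCR-11 (3L:25120709-25126171), a small subunit, had 149.8, 134.9 and 126.9 CPM in Sfmbt RNAi, against 195.7, 235.5 and 243.5 CPM in mCherry RNAi (log2 fold change −0.71 with SE 0.11, adjusted p = 0.00310 in edgeR). The groups did not overlap, and no leave-one-out fit lost the call. UQCR-C1 (3R:14890231-14892387), a large core protein on the matrix side, had 392.9, 361.1 and 322.1 CPM in Sfmbt RNAi, against 467.1, 457.2 and 479.0 CPM in mCherry RNAi. Its log2 fold change was −0.38 with SE 0.09 (adjusted p = 0.0176 in edgeR), without overlap. The call was lost without Sfmbt RNAi replicate 2 (adjusted p = 0.0516 in edgeR) and without mCherry RNAi replicate 2 or 3 (adjusted p = 0.0588 and 0.0664 in edgeR). UQCR-C2, the partner of UQCR-C1, had a log2 fold change of −0.12 with SE 0.09 and overlapping groups. UQCR-14 had 121.8, 108.6 and 106.2 CPM in Sfmbt RNAi, against 104.8, 99.3 and 93.8 CPM in mCherry RNAi. All its Sfmbt RNAi libraries were above all its mCherry RNAi libraries, but the log2 fold change of 0.18 with SE 0.08 did not pass (adjusted p = 0.131 in edgeR). UQCR-6.4 and UQCR-Q, small subunits like UQCR-14, had log2 fold changes of −0.22 and 0.07.

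Complex IV, cytochrome c oxidase, had 2 genes lower (20%), 1 higher (10%) and 7 not called, against 19.4% lower and 15.2% higher of all tested genes. COX7B (3L:17425477-17426282), a small subunit, had 135.4, 120.6 and 103.4 CPM in Sfmbt RNAi, against 148.7, 164.5 and 157.9 CPM in mCherry RNAi (log2 fold change −0.39 with SE 0.11, adjusted p = 0.0268 in edgeR). COX5B (2L:6557800-6559308), a zinc-binding matrix subunit in mammals, had 67.6, 60.3 and 56.3 CPM in Sfmbt RNAi, against 71.7, 77.3 and 74.8 CPM in mCherry RNAi (log2 fold change −0.28 with SE 0.08, adjusted p = 0.0363 in edgeR). COX7A (3R:8339944-8341043), a subunit at the complex's surface, was higher, with 226.9, 198.8 and 210.8 CPM in Sfmbt RNAi, against 177.9, 178.1 and 164.0 CPM in mCherry RNAi (log2 fold change 0.29 with SE 0.08, adjusted p = 0.0251 in edgeR). In none of the 3 did the groups overlap. Leaving out 1 library ended each of these calls: for COX7B without Sfmbt RNAi replicate 2 or mCherry RNAi replicate 2 or 3 (adjusted p from 0.0693 to 0.0979 in edgeR), for COX5B without Sfmbt RNAi replicate 2 or 3 or mCherry RNAi replicate 2 or 3 (from 0.0833 to 0.126), and for COX7A without mCherry RNAi replicate 2 or 3 (0.0784 and 0.111). COX5A and COX4, conserved subunits of the complex, had log2 fold changes of −0.22 and −0.12 and did not pass (adjusted p = 0.150 and 0.327 in edgeR).

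Complex V had 1 gene lower (8.33%), 1 higher (8.33%) and 10 not called, against 19.4% lower and 15.2% higher of all tested genes. ATPsynCF6 (3R:23355220-23356064), coupling factor 6 of the stalk that holds the catalytic head, had 161.1, 146.3 and 143.1 CPM in Sfmbt RNAi, against 190.2, 176.4 and 169.9 CPM in mCherry RNAi. The groups did not overlap, and the log2 fold change was −0.25 ± 0.08 SE (adjusted p = 0.0424 in edgeR). The call was lost in each leave-one-out fit but the one without Sfmbt RNAi replicate 1 (adjusted p from 0.0672 to 0.127 in edgeR). ATPsynO, a further stalk subunit, had 271.6, 229.3 and 210.6 CPM in Sfmbt RNAi, against 286.0, 305.6 and 295.6 CPM in mCherry RNAi. Its log2 fold change of −0.32 with SE 0.10 just missed the threshold (adjusted p = 0.0502 in edgeR) and passed without Sfmbt RNAi replicate 1 (adjusted p = 0.0146 in edgeR). ATPsynbeta (4:1031484-1034917), the catalytic subunit, had 1842, 1546 and 1590 CPM in Sfmbt RNAi, against 2130, 1804 and 1957 CPM in mCherry RNAi. The first Sfmbt RNAi library fell within the mCherry RNAi range, and the log2 fold change of −0.24 with SE 0.12 did not pass (adjusted p = 0.155 in edgeR). ATPsynC, the ring subunit that turns with proton flow, had 922.1, 740.0 and 676.4 CPM in Sfmbt RNAi and 868.7, 735.6 and 778.5 CPM in mCherry RNAi, with no difference beyond the spread.

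ATPsynepsilonL (3R:10121773-10122320), a paralog of the gene for the epsilon subunit of the ATP synthase head, stood apart from every other gene of the set. It had 378, 231 and 231 fragments in Sfmbt RNAi, against 0, 6 and 4 fragments in mCherry RNAi. On the CPM scale these are 10.1, 6.35 and 4.30 in Sfmbt RNAi, against 0, 0.130 and 0.118 in mCherry RNAi (log2 fold change 6.38 with SE 0.86, adjusted p = 0.00257 in edgeR). Each Sfmbt RNAi library was far above each mCherry RNAi library, and the call held in all leave-one-out fits. Its fragments in every mCherry RNAi library were under the minimum of 10, so ATPsynepsilonL entered the set and the test only through Sfmbt RNAi. A gene so scarce in mCherry RNAi could join only by being higher, so its standing apart says nothing about the set. Summed over the libraries, 840 fragments in Sfmbt RNAi against 10 in mCherry RNAi gave a depth-corrected ratio of 84.2, with an exact 95% interval of 45.6 to 176 for counting error only. The canonical epsilon gene is sun, which had a log2 fold change of −0.36 (adjusted p = 0.0627 in edgeR). Per kilobase of exon, ATPsynepsilonL made up 16.5%, 11.8% and 10.3% of the sum of both genes in Sfmbt RNAi, against 0%, 0.217% and 0.191% in mCherry RNAi. The exact two-sided permutation test gave p = 0.1, the smallest that 3 against 3 libraries can give.

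**Figure D2:**
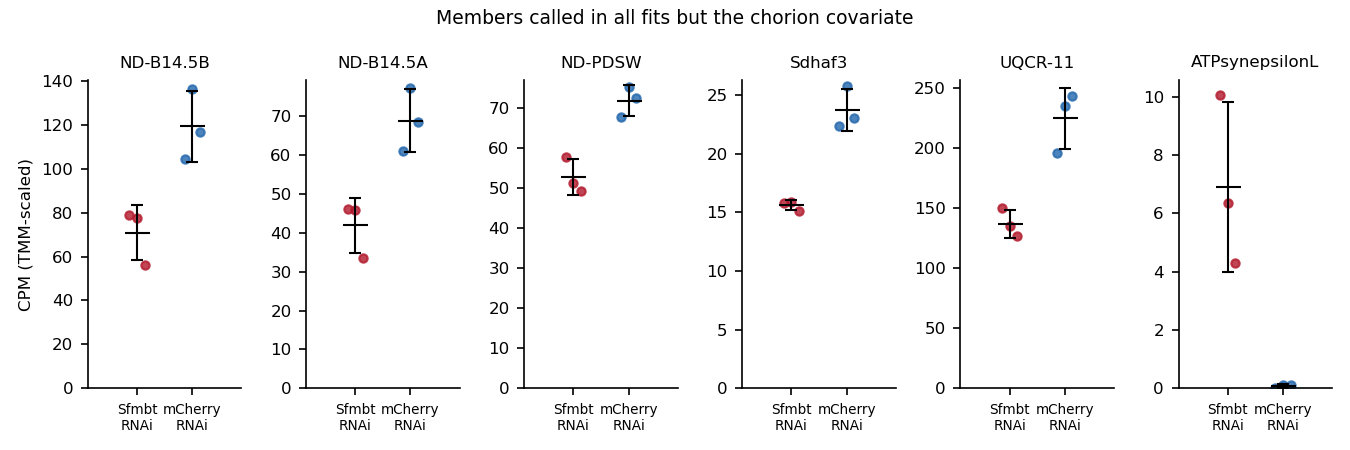
TMM-scaled CPM per library (linear axes from 0) for the 6 genes whose calls held in all fits other than the one with the chorion covariate, Sfmbt RNAi (red) at the left and mCherry RNAi (blue) at the right; bars are the mean ± SD of 3 libraries. In each panel the 2 groups do not overlap, and ATPsynepsilonL is near 0 in all mCherry RNAi libraries.

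Paralogs whose symbols end in L, many of which are expressed mainly in testis in Drosophila, were otherwise scarce in the ovary. COX4L, just above the minimum with a mean of 13.8 fragments, had 18, 19 and 22 fragments in Sfmbt RNAi, against 5, 8 and 11 in mCherry RNAi. In mCherry RNAi alone its mean lay under the minimum of 10, so COX4L entered the set only through its higher group. Its groups did not overlap, but the log2 fold change of 1.25 with SE 0.45 did not pass (adjusted p = 0.0691 in edgeR), and it passed without mCherry RNAi replicate 3 (adjusted p = 0.0456 in edgeR). COX7AL2 had 9, 92 and 10 fragments in Sfmbt RNAi, against 18, 25 and 15 in mCherry RNAi. A single library carried the excess: the log2 fold change was 1.10 ± 1.01 SE with all libraries and −1.09 without Sfmbt RNAi replicate 2, and neither passed (adjusted p = 0.445 and 0.114 in edgeR). Of the 23 genes under the minimum, ATPsynbetaL came nearest, with 6, 14 and 34 fragments in Sfmbt RNAi, against 2, 0 and 0 in mCherry RNAi, followed by COX7CL with 8, 4 and 17 in Sfmbt RNAi, against 7, 7 and 9 in mCherry RNAi. Neither was tested. Reads that could come from more than 1 gene were not counted, so these values rest on sequence that differs between paralogs.

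Summed over the 65 genes, the nuclear respiratory chain had 10300, 9054 and 8662 CPM in Sfmbt RNAi, against 10441, 10052 and 10147 CPM in mCherry RNAi. The first Sfmbt RNAi library lay within the mCherry RNAi range and the other 2 under it, a mean of 9339 ± 855.6 CPM in Sfmbt RNAi and 10213 ± 202.7 CPM in mCherry RNAi (SD, n = 3 each; exact two-sided permutation p = 0.3). Among the 5 complexes, III was the only one whose sums did not overlap, with 1119, 1003 and 916.5 CPM in Sfmbt RNAi, against 1192, 1224 and 1259 CPM in mCherry RNAi (exact permutation p = 0.1, the smallest possible). Its mean sum in Sfmbt RNAi was 0.827 times that in mCherry RNAi. The sum over all tested genes, 0.852 times, did not overlap either, but it includes the chorion genes (0.31 times) and the 13 mitochondrial protein genes (0.47 times). That sum does not describe the typical gene: the median log2 fold change of all tested genes was −0.04. Complex I averaged 2586 ± 170.3 CPM in Sfmbt RNAi and 2759 ± 28.0 CPM in mCherry RNAi (exact permutation p = 0.2, SD, n = 3 each). Complex V averaged 4182 ± 435.7 CPM in Sfmbt RNAi and 4599 ± 251.3 CPM in mCherry RNAi (exact permutation p = 0.3, SD, n = 3 each). Complex IV averaged 1119 ± 127.7 CPM in Sfmbt RNAi and 1213 ± 30.7 CPM in mCherry RNAi (exact permutation p = 0.4, SD, n = 3 each). Complex II, the entirely nuclear complex, averaged 438.8 ± 29.7 CPM in Sfmbt RNAi and 418.0 ± 18.6 CPM in mCherry RNAi (exact permutation p = 0.4, SD, n = 3 each). Over these 5 complexes and the whole set, 6 comparisons, the Benjamini-Hochberg adjusted p was 0.4 for each. The Sfmbt RNAi libraries differed among themselves in a shared way: replicate 1 was the highest of its group in 60 of 65 genes and replicate 3 the lowest in 46. The median coefficient of variation of the 65 genes was 8.32% in Sfmbt RNAi and 5.04% in mCherry RNAi, and that of all tested genes was also larger in Sfmbt RNAi (11.1%) than in mCherry RNAi (8.10%).

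Relative to the mitochondrial transcripts of the chain, the nuclear ones were more abundant in every Sfmbt RNAi library. The 13 protein genes of the mitochondrial genome encode subunits of complexes I, III, IV and V. Their summed level was 30941, 36050 and 20212 CPM in Sfmbt RNAi, against 52868, 67594 and 65061 CPM in mCherry RNAi. Of the 13, 11 were called lower (84.6%, against 19.4% of all tested genes). The count was 7 without mCherry RNAi replicate 2 or 3, and 0 with the chorion covariate. The fragments of the 65 nuclear genes divided by those of the 13 mitochondrial genes gave 0.333, 0.251 and 0.429 in Sfmbt RNAi, against 0.198, 0.149 and 0.156 in mCherry RNAi. No Sfmbt RNAi library fell within the mCherry RNAi range. The mean ratio was 2.02 times as high in Sfmbt RNAi (exact two-sided permutation p = 0.1, the smallest possible). For single complexes the ratio to the same 13 genes was 2.07 times as high for I, 2.32 for II, 1.82 for III, 2.03 for IV and 2.00 for V. These ratios share the mitochondrial denominator, whose mean sum in Sfmbt RNAi was 0.47 times that in mCherry RNAi. The mean sum of the 65 nuclear genes was 0.914 times that in mCherry RNAi, and that of all tested genes 0.852 times. The latter sum itself includes the 13 mitochondrial genes and the chorion genes. By median log2 fold change the 65 genes and all tested genes were alike, at −0.04 each. The ratio was not computed for other nuclear genes, so it is not shown to be particular to this set.

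**Figure D3:**
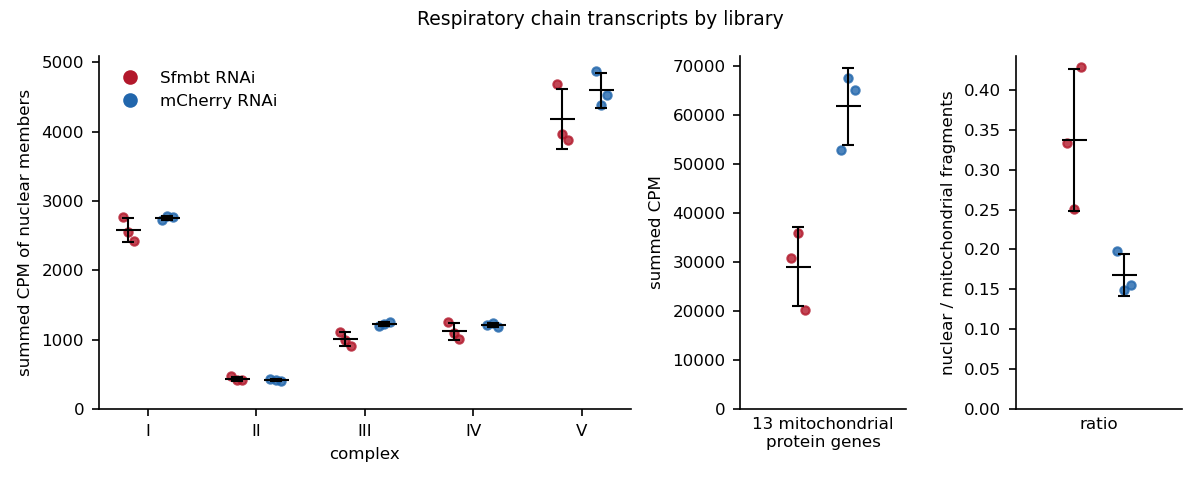
Left, summed TMM-scaled CPM of the nuclear genes by complex; middle, summed CPM of the 13 mitochondrial protein genes; right, nuclear over mitochondrial fragments (linear axes from 0; a point per library, Sfmbt RNAi in red left of mCherry RNAi in blue, bars mean ± SD, n = 3). The nuclear sums lie close together, the mitochondrial sums are lower in every Sfmbt RNAi library, and the ratio is higher in every Sfmbt RNAi library.

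Levels of different genes were compared as CPM per kilobase of summed exon length. On that scale, over all 6 libraries, ATPsynbeta was the highest at 759, followed by ATPsynC at 397, ATPsynO and COX7B at 332 each, COX5A at 284, COX7A at 277, ATPsynF at 258 and UQCR-C1 at 253. The median was 230 for complex V, 158 for complex IV, 136 for complex III, 80.7 for complex I and 66.4 for complex II. The complex I genes ran from 24.1 for ND-MWFE to 175 for ND-MLRQ. The order of levels hardly differed between the groups, with a Spearman rho of 0.967 across the 65 genes, which are not independent replicates. The log2 fold change had a rho of −0.37 with the level per kilobase across the 65 genes (−0.09 over all tested genes), and of 0.17 with exon length (0.18 over all tested genes). The 11 lower genes had a median exon length of 729 bases and the 50 not called a median of 900 bases. The 4 higher genes had a median of 958 bases.

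**Figure D4:**
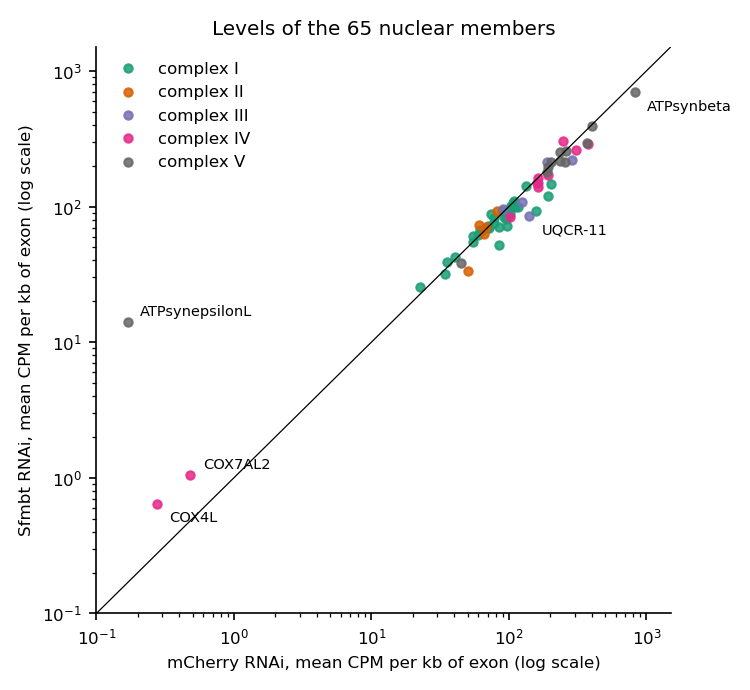
Mean TMM-scaled CPM per kilobase of exon of the 65 genes in Sfmbt RNAi (vertical) against mCherry RNAi (horizontal), both on log scales, coloured by complex, with the line of equal levels (n = 3 libraries a group). Most genes lie near the line, ATPsynbeta is at the upper end, and ATPsynepsilonL lies far above the line.

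Genes that work with the nuclear subunits moved in both directions, and the counts of each list stand against 19.4% of all tested genes called lower and 15.2% called higher. With the chorion covariate no gene of these 7 lists was called in edgeR, and at an unadjusted p under 0.05 each list had from 1 to 3 genes lower and 0 higher. Among 8 tested subunits with other names, 1 was lower and 0 higher (0 higher at an unadjusted p under 0.05 and 0 in DESeq2). Without Sfmbt RNAi replicate 1 the count was 4 lower, and it was 0 in each of the other 5 leave-one-out fits, with 1 or 2 lower at an unadjusted p under 0.05. Cyt-c1, the haem subunit of complex III beside UQCR-C1, had a log2 fold change of −0.35 with SE 0.10 (adjusted p = 0.0313 in edgeR), a call lost in each leave-one-out fit but the one without Sfmbt RNAi replicate 1 (adjusted p from 0.0513 to 0.105 in edgeR). RFeSP, the Rieske iron-sulphur subunit of complex III, had 0.01 and blw, the alpha subunit of ATP synthase, 0.02 on the log2 scale. Among 14 tested assembly and maturation factors 5 (35.7%) were lower and 0 higher (0 higher at an unadjusted p under 0.05 and 0 in DESeq2). Taz, which remodels the inner-membrane lipid cardiolipin, had 27.1, 31.8 and 26.8 CPM in Sfmbt RNAi, against 50.6, 51.1 and 52.5 CPM in mCherry RNAi (log2 fold change −0.85 with SE 0.08, adjusted p = 0.000535 in edgeR). Coa7, a complex IV assembly factor, had a log2 fold change of −0.52 with SE 0.06 (adjusted p = 0.00123 in edgeR) and Cox10, which makes the haem of complex IV, −0.41 ± 0.08 SE (adjusted p = 0.00963 in edgeR). In Taz, Coa7 and Cox10 the groups did not overlap and no leave-one-out fit lost the call, which also held for CG11722 (log2 fold change −0.52). Sirup, an assembly factor of complex II like Sdhaf3, had −0.92 ± 0.26 SE (adjusted p = 0.0387 in edgeR), lost without Sfmbt RNAi replicate 1 or 3 or mCherry RNAi replicate 2 or 3 (adjusted p from 0.0560 to 0.146 in edgeR).

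Of 9 genes for cristae and inner membrane quality control, 1 was lower and 3 were higher, and each of the 4 lost its call without mCherry RNAi replicate 2 and without replicate 3 (adjusted p from 0.0577 to 0.158 in edgeR in the 2 fits). Mitofilin and YME1L also lost theirs without Sfmbt RNAi replicate 1 or 3 (adjusted p from 0.0656 to 0.0807 in edgeR), and YME1L without Sfmbt RNAi replicate 2 (adjusted p = 0.0770 in edgeR). QIL1, part of the complex that shapes cristae junctions, had a log2 fold change of −0.63 with SE 0.15 (adjusted p = 0.0172 in edgeR), and Opa1, the inner membrane fusion GTPase, had 0.35 ± 0.08 SE (adjusted p = 0.0130 in edgeR). Of 17 genes listed for the citric acid cycle, 2 were lower and 2 higher. Ogdh, of the oxoglutarate dehydrogenase complex, had a log2 fold change of 0.57 with SE 0.11 (adjusted p = 0.00716 in edgeR) and Idh, an isocitrate dehydrogenase, −0.48 ± 0.07 SE (adjusted p = 0.00342 in edgeR), and both calls held in the leave-one-out fits. With the chorion covariate the log2 fold change was 0.12 for Ogdh and −0.57 for Idh (adjusted p = 0.803 and 0.171 in edgeR). Idh3a, Idh3b and Idh3g, listed apart from Idh, had 0.32, −0.14 and −0.03 without the covariate and were not called (adjusted p = 0.0541, 0.0911 and 0.8325 in edgeR). Fum1 (−0.25) and Pdha (0.32) lost their calls in 5 leave-one-out fits each (adjusted p from 0.0582 to 0.174 in edgeR). Of 8 carriers and import genes, 1 was lower and 1 higher. The pore gene porin had a log2 fold change of −0.35 with SE 0.09 (adjusted p = 0.0246 in edgeR), and its call was lost in each leave-one-out fit but the one without Sfmbt RNAi replicate 1 (adjusted p from 0.0540 to 0.0849 in edgeR). Ant2, an ADP/ATP translocase, had 0.91 ± 0.25 SE (adjusted p = 0.0272 in edgeR), lost in each leave-one-out fit but the one without Sfmbt RNAi replicate 3 (adjusted p from 0.0648 to 0.106 in edgeR).

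Of 12 tested genes for maintenance and expression of mitochondrial DNA, 1 (8.33%) was lower and 5 (41.7%) were higher, and with the chorion covariate 0 were called. The replicative helicase gene mtDNA-helicase had 30.6, 27.6 and 26.5 CPM in Sfmbt RNAi, against 44.4, 45.4 and 43.5 CPM in mCherry RNAi (log2 fold change −0.65 with SE 0.07, adjusted p = 0.00104 in edgeR). The RNA-binding protein gene bsf, related to the mammalian mitochondrial mRNA stabiliser LRPPRC, had 361.3, 267.2 and 312.7 CPM in Sfmbt RNAi, against 209.0, 164.1 and 176.8 CPM in mCherry RNAi (log2 fold change 0.78 with SE 0.14, adjusted p = 0.00575 in edgeR). The groups did not overlap in either gene, and neither call was lost in a leave-one-out fit. Like both, larp, which brings translation to the mitochondrial surface in the ovary, kept its call in each of these fits (log2 fold change 0.59 with SE 0.12, adjusted p = 0.00821 in edgeR). With the chorion covariate the log2 fold change was 0.08 for larp, 0.14 for bsf and −0.82 for mtDNA-helicase (adjusted p = 0.858, 0.770 and 0.0831 in edgeR). The other 3 called higher, clu, PolG1 and PolrMT, lost their calls without mCherry RNAi replicate 2 or 3, where 2 genes of the list were higher. TFAM, which packages mitochondrial DNA, had a log2 fold change of −0.09 and did not pass (adjusted p = 0.404 in edgeR). Of 9 transcriptional and quality regulators of mitochondria, 1 was lower and 2 higher. Ets97D, which regulates nuclear genes for mitochondria in flies, had 36.8, 39.8 and 40.7 CPM in Sfmbt RNAi, against 53.3, 54.5 and 51.9 CPM in mCherry RNAi (log2 fold change −0.45 with SE 0.07, adjusted p = 0.00283 in edgeR). The NRF1-related gene ewg had 127.5, 118.2 and 111.1 CPM in Sfmbt RNAi, against 83.9, 79.8 and 70.5 CPM in mCherry RNAi (log2 fold change 0.61 with SE 0.09, adjusted p = 0.00303 in edgeR). Both calls held in each leave-one-out fit, and with the chorion covariate Ets97D had −0.31 and ewg 0.43 (adjusted p = 0.397 and 0.401 in edgeR). ERR (log2 fold change 0.33) lost its call in 4 of these fits (adjusted p from 0.0583 to 0.120 in edgeR).

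Pho and Sfmbt together form PhoRC, a Polycomb complex that recognises DNA, and the authors' deposited table lists 352 of its summits with 1 value per summit and ChIP group, so these values have no replicate error. That table assigned a summit to 1 of the 65 genes, COX7AL2, and to 221 of all tested genes (2.29%). The COX7AL2 summit, inside the gene at position 2196700 of 2L, had 1.02 RPM for GFP-Sfmbt and 1.63 RPM for Pho, against 0.546 RPM for untagged chromatin. Within 1 kb of a gene body there were summits at 3 of the 65 genes and at 319 tested genes (3.30%). A summit 218 bases before the start of COX5A was assigned by the authors to glo, with 0.749 RPM for GFP-Sfmbt and 3.14 RPM for Pho, against 0.378 RPM for untagged chromatin. A summit 387 bases before SdhC was assigned to Tctp, with 1.04 RPM for GFP-Sfmbt and 2.38 RPM for Pho, against 0.798 RPM for untagged chromatin. None of these 3 genes was called in the RNA comparison with all libraries. The median distance from the start site of a gene of the set to the nearest summit was 136 kb. It leaves out ND-49 and ATPsynbeta, on the fourth chromosome, where no summit is listed. This distance was not computed for all tested genes.

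The 65 genes lie on every major chromosome arm, with 12 on 2L, 12 on 2R, 13 on 3L, 15 on 3R, 11 on X and 2 on the fourth chromosome. ND-MLRQ, ND-AGGG and UQCR-11 all lie in the last stretch of 3L, from position 23339326 on, towards the centromere. This was noticed after the values were seen. The 25 other tested genes of that stretch included 9 lower (36%) and 4 higher (16%), and the rest of 3L, with 1810 tested genes, had 19.0% lower and 14.6% higher. No test was made of that stretch.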

How the data were processed

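RNA-seq libraries of 6 ovary samples and the authors' table of ChIP summits were used. The authors aligned reads with STAR 2.7.2a, per the submitters' processing notes, and made the deposited gene counts with featureCounts 1.6.3 against BDGP6.28 (Ensembl release 101), per the file headers. Fragments were counted as reverse-stranded pairs, and the header sets no option for fragments with several places or several genes, so genes that overlap on 1 strand, such as ND-15, are counted from their unique stretches. Columns C were read as the control and columns A, by elimination, as Sfmbt RNAi.

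The deposited peak table holds the authors' RPM per summit and ChIP group, with deepTools 3.5.0 named in the submitters' processing notes. The peak caller, the window and any pooling are not stated in these sources. The rank scores, the log2 fold changes, the adjusted p-values and the mean TPM that the authors deposited in that table were not used.

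Gene symbols came from a reference table of gene IDs, which named 17670 of 17768 genes. edgeR 4.0.16 in R 4.3.3 was fitted to all counts: filterByExpr with a minimum count of 10, TMM, robust dispersions, the quasi-likelihood F-test with group alone, and Benjamini-Hochberg adjustment at 0.05 over 9667 genes. Standard errors follow from the F statistic. The fit was tested on simulated counts. Sums and ratios were compared by exact permutation, whose smallest p is 0.1. Intervals and counts of few fragments cover counting error only. Alternatives were RLE scaling, TMM without mitochondrial and chorion genes, 2 other filters, DESeq2 1.42.0, the replicate number as a block, the chorion covariate and leaving out each library.

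The 65 genes and all gene lists were chosen with earlier results of these data known. Named are, per complex, the called genes, the 2 highest per kilobase, the 2 uncalled with the smallest p, paralogs and genes with a summit; from each list, called genes with the largest changes. Of the written list names, 128 matched by symbol, 6 by synonym and 5 not at all. Replicates are called biological in the labels. Every pair of libraries of a group differed by more than sampling noise, with a chi-square of at least 27.3 per gene.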

Additional observations from a re-analysis of the deposited data

How the results depend on the processing

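The counts of respiratory chain genes called depend on single libraries. With 1 library left out at a time, edgeR called from 5 to 11 genes lower and from 1 to 4 higher, the lowest without mCherry RNAi replicate 2 (5 lower, 1 higher) and replicate 3 (5 lower, 2 higher). Without the filter 2 were higher. With the replicate number as a block 7 were lower and 3 higher. Whether the numbers pair the libraries is not settled. Deviations from the group means correlated at 0.359, 0.319 and −0.0441 for numbers 1 to 3, and numbers 2 and 3 each correlated best with another number. The deviations of the 3 libraries of a group sum to 0, so these correlations are tied to each other and cannot decide it. With the chorion covariate 0 were lower and 0 higher, and the median log2 fold change was −0.246 (−0.048 over all tested genes). The covariate also turned the sign of SdhC (−0.01), SdhA (−0.27), UQCR-14 (−0.06), Sirup (0.27), Mitofilin (−0.07), mt:ATPase8 (0.16), ERR (−0.01), Pdha (−0.06) and clu (−0.17), of which Sirup, Mitofilin, ERR, Pdha and clu had been called. ATPsynC, never called, was at 0.00 with RLE scaling and with DESeq2, and from −0.13 to 0.07 with 1 library left out. COX7AL2 ran from −1.09 to 1.61 when single libraries were left out. Counted within 1 kb of the gene in place of the authors' assignment, 3 genes had a summit. The cause of these shifts was not tested. ND-B14.5B, ND-B14.5A, ND-PDSW, Sdhaf3, UQCR-11 and ATPsynepsilonL kept their calls in every alternative but the chorion covariate. The summed level of the 65 genes (log2 difference from −0.206 to −0.081 with 1 library left out) and the nuclear to mitochondrial ratio (log2 difference from 0.800 to 1.185) kept their direction in each alternative run. With 3 libraries a group, an exact test cannot go below 0.1. The 59 fragments of COX4L in Sfmbt RNAi and 24 in mCherry RNAi leave an exact 95% counting interval of 1.51 to 4.14 around its ratio of 2.46. COX4L met the minimum count only through its Sfmbt RNAi fragments, so this interval is no test of a rise.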
